A study of Homo sapiens with 12 samples.

Results

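The nuclear genes of respiratory complex I examined here were the 36 listed structural subunits of NADH dehydrogenase whose gene name was a row of both deposited tables, out of 62703 genes in each table. The list holds no assembly factors and no mitochondrially coded subunits, and it is not every subunit. All 36 were found, and all 36 passed the filter on low counts in both lines. The cells were the established hepatocellular carcinoma lines Huh7 and Hep3B, each kept in hypoxia for 24 hours before RNA was taken. In each line, 3 libraries carried shNC, a control hairpin, and 3 carried shSLC6A8, a hairpin against the creatine transporter SLC6A8. Every one of the 12 libraries was hypoxic, so each comparison is between hairpins or between lines and none is with normoxia. The labels name a single knockdown hairpin, and they do not tell separate cultures from repeat libraries of 1 culture, so the spread behind every p-value may be technical.

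Complex I is the largest enzyme of the respiratory chain. It sits in the inner mitochondrial membrane, takes electrons from NADH in its matrix arm, passes them along a row of iron-sulfur clusters to ubiquinone, and pumps protons through its membrane arm. The core subunits carry the redox centres and the proton channels. The accessory subunits surround them and are needed for assembly and stability, and the core of the membrane arm is coded by the mitochondrial genome. Complex I is a known target of the hypoxic response, which lowers respiration through several factors induced by HIF.

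SLC6A8 fell in both lines, by 1.95 ± 0.09 in Huh7 and by 3.42 ± 0.05 in Hep3B (log2, ± SE, n = 3 per group; edgeR quasi-likelihood test, adjusted p = 1.02e-11 and 2.13e-10). Library totals ran from 21065965 to 28078068 estimated counts. Hepatocyte markers were high in every group, with albumin at a mean of 3550 to 10600 TPM (transcripts of the gene as a share of all transcripts, a level scaled for gene length and library size). The summed TPM of 12 hepatocyte markers ran from 15700 to 16400 in Huh7 shNC, from 18400 to 18700 in Huh7 shSLC6A8, from 26100 to 26400 in Hep3B shNC and from 18700 to 19200 in Hep3B shSLC6A8. The endothelial markers CDH5 and VWF and the leukocyte markers PTPRC and CD3E stayed below a mean of 1 TPM in all 4 groups. Among the other markers of non-liver cells, the endothelial and leukocyte marker PECAM1 had a mean of 0.417 to 1.73 TPM, CD68 of 14.1 to 54.2 TPM and COL1A2 of 1.12 to 25.8 TPM. The part of these differences between groups in the results on complex I was not tested.

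Complex I genes spanned a wide range of transcript levels, although the enzyme holds nearly all of its subunits in equal number. In Huh7 shNC the mean level ran from 8.86 TPM for NDUFV3, a small accessory subunit of the NADH-binding end, to 728 TPM for NDUFB9, an accessory subunit of the distal membrane arm, with a median of 183 TPM over the 36 genes. In Hep3B shNC it ran from 18.8 TPM for NDUFV3 to 630 TPM for NDUFS5, with a median of 179 TPM. The medians were 212 TPM in Huh7 shSLC6A8 and 199 TPM in Hep3B shSLC6A8. The order was similar at both ends. NDUFS5, NDUFA13, NDUFS8 and NDUFB9 were among the 5 highest in every group, and NDUFV3 and NDUFB6 were the lowest pair in every group.

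NDUFS5, an accessory subunit on the intermembrane side of the membrane arm, had the highest mean over the 12 libraries. Its TPM was 609, 674 and 607 in Huh7 shNC, 654, 638 and 707 in Huh7 shSLC6A8, 598, 646 and 647 in Hep3B shNC, and 686, 673 and 706 in Hep3B shSLC6A8. The Huh7 groups overlapped in TPM and the Hep3B groups did not. Its counts in Hep3B changed by -0.06 ± 0.08 (adjusted p = 0.584; log2, shSLC6A8 over shNC, edgeR quasi-likelihood test) and were not called under any of the 15 alternatives. NDUFV3 had the lowest mean, with 8.05, 9.23 and 9.30 TPM in Huh7 shNC, 11.4, 11.2 and 12.4 in Huh7 shSLC6A8, 17.5, 18.9 and 20.1 in Hep3B shNC, and 21.5, 18.6 and 20.6 in Hep3B shSLC6A8. The level of NDUFV3 was lower in each of the 6 Huh7 libraries than in each of the 6 Hep3B libraries.

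Among the 6 core subunits measured, NDUFS8, a carrier of iron-sulfur clusters near the ubiquinone site, was the highest in both control groups, at 489 ± 25.7 TPM in Huh7 and 550 ± 32.1 TPM in Hep3B (mean ± SD, n = 3). NDUFV2, which holds an iron-sulfur cluster beside the NADH site, had 352 ± 22.9 TPM in Huh7 shNC and 150 ± 10.7 TPM in Hep3B shNC. Its partner NDUFV1, which binds NADH and the flavin, had 234 ± 3.54 and 386 ± 1.45 TPM in those groups. In TPM the order of the partners was thus opposite in the control libraries of the lines. In counts NDUFV1 was above NDUFV2 in every control library of both lines. NDUFS3, a scaffold of the ubiquinone-binding part, had 118 ± 3.59 and 190 ± 4.70 TPM. NDUFS1, the large subunit that holds further iron-sulfur clusters, had 65.8 ± 2.65 and 53.7 ± 1.49 TPM. NDUFS7, which carries the last cluster before ubiquinone, had 52.4 ± 3.13 TPM in Huh7 and 188 ± 11.8 TPM in Hep3B.

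**Figure D1:**
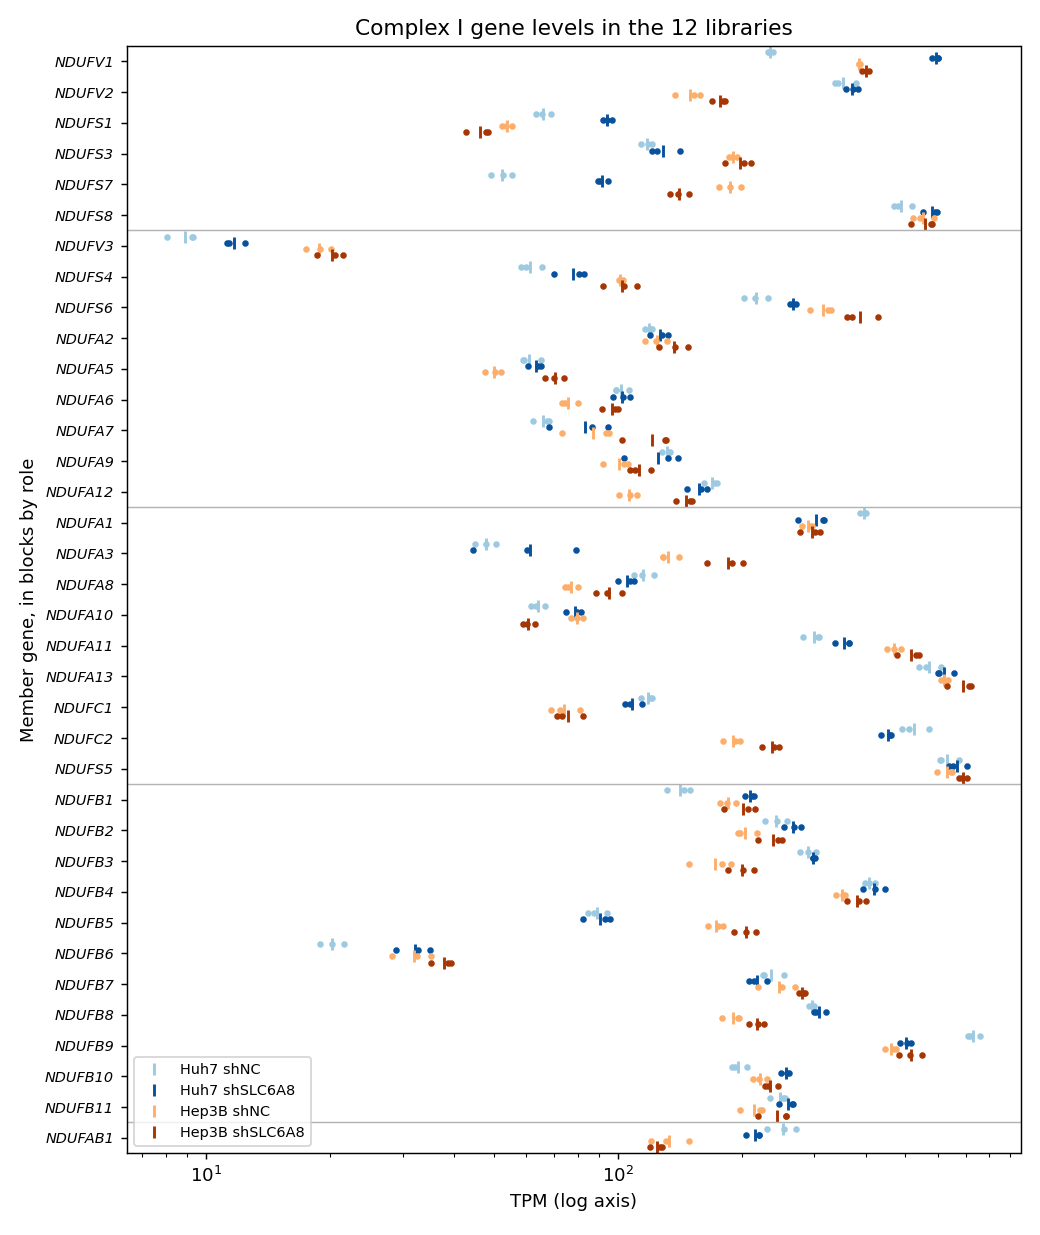
Level of each of the 36 complex I genes in TPM (log axis) in each library (points) with the mean of 3 libraries (ticks), for the 4 groups, in blocks from top to bottom of core matrix arm, accessory matrix arm, proximal membrane arm, distal membrane arm and the acyl carrier NDUFAB1. NDUFV1 in Huh7 moves from a mean of 234 to 594 TPM, and NDUFV3 is the lowest gene in every group.

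In Huh7 the knockdown was accompanied by changes in both directions within complex I. At an adjusted p under 0.05, 14 of the 36 genes fell and 7 rose, or 58.3% of the members, beside 61.8% of all 17022 genes tested in Huh7. By direction, 38.9% of the members were lower and 19.4% higher, beside 31.0% and 30.9% of all genes. The median change of the 36 genes was -0.11, and that of all genes was 0.00 (log2, shSLC6A8 over shNC, counts scaled by TMM, a normalisation that takes most genes as unchanged). The groups did not overlap for 20 members, beside 66.6% of all genes. The balance of directions depended on the scaling, since 8 fell and 12 rose when counts were scaled by library totals, which moved the median of all genes by 0.104, and 9 fell and 15 rose when trends with gene length and GC content were removed. The members were short, with a median length of 770.5 bases beside 2813 for all genes tested. Without shSLC6A8 replicate 1, 9 fell and 8 rose. Among single genes, 13 of the 21 calls held in the same direction under each of the 15 alternatives run, 7 lower and 6 higher.

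The core of the matrix arm rose or did not pass the test in Huh7, with 3 of 6 higher, none lower and a median of 0.19. NDUFV1 (chr11:67606936-67612554 in GRCh38.p14) had normalised read counts of 214, 231 and 212 CPM (counts scaled by TMM and set against the library total) in shNC and 481, 480 and 512 CPM in shSLC6A8. Every knockdown library had far more NDUFV1 than every control, a rise of 1.17 ± 0.05 on the log2 scale or 2.24-fold (adjusted p = 3.33e-12). NDUFV1 was the single member of the 36 to reach an absolute log2 change of 1 in either line, and the single one marked significant in the authors' deposited table for Huh7. NDUFS1 (chr2:206114817-206159444) had 175, 169 and 175 CPM in shNC and 218, 226 and 218 CPM in shSLC6A8, a rise of 0.35 ± 0.05 (adjusted p = 3.24e-06) with no overlap. It overlaps EEF1B2 on the other strand, and the strand setting of the counting is not given in the sources used here. NDUFS7 (chr19:1383907-1395584) had 34.8, 38.1 and 33.6 CPM in shNC and 42.6, 44.4 and 47.2 CPM in shSLC6A8, again with no overlap, a rise of 0.33 ± 0.07 (adjusted p = 0.000399). In TPM the same gene went from 52.4 to 91.5, a log2 ratio of 0.81, whereas the gap between the TPM ratio and the count change had a median of 0.19 over the members in Huh7. NDUFV2, NDUFS3 and NDUFS8 did not pass the test, with changes of -0.11, -0.08 and 0.05.

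The accessory subunits of the matrix arm in Huh7 held 4 lower, none higher and 5 that did not pass the test, with a median of -0.10. The 4 were NDUFA12 (-0.29 ± 0.06, adjusted p = 0.000814), NDUFA5 (-0.20 ± 0.05, adjusted p = 0.00412), NDUFA9 (-0.18 ± 0.06, adjusted p = 0.0108) and NDUFA6 (-0.17 ± 0.07, adjusted p = 0.0369). NDUFA12 and NDUFA5 lie around the ubiquinone-binding part, NDUFA9 sits where the arms join, and NDUFA6 is a protein of the LYR family that binds the acyl carrier. NDUFA12 alone of these 4 was called under each of the 15 alternatives. NDUFA5 lost its call with library totals (-0.09), NDUFA9 with library totals and without shSLC6A8 replicate 1 (-0.12, adjusted p = 0.102). NDUFA6 lost its call under 7 of them, among them leaving out shNC replicate 2 (-0.11, adjusted p = 0.116), shSLC6A8 replicate 1 (-0.11, adjusted p = 0.212) and shSLC6A8 replicate 2 (-0.15, adjusted p = 0.118). The genes NDUFS4, NDUFS6 and NDUFV3, which stabilise the NADH-binding end, changed by 0.11, 0.11 and 0.12 without passing the test.

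In the proximal membrane arm of Huh7, 4 accessory genes fell, 1 rose and 4 did not pass the test, with a median of -0.11. NDUFA1 (chrX:119871832-119876662), a small membrane-spanning subunit needed for assembly, had 64.3, 68.2 and 62.3 CPM in shNC and 37.2, 46.4 and 47.4 CPM in shSLC6A8. The groups were apart, and the fall was 0.57 ± 0.08 on the log2 scale, to 0.673-fold of the control (adjusted p = 1.17e-05). NDUFC2 (chr11:78068297-78079862), which anchors the membrane arm during assembly, had 178, 211 and 176 CPM in shNC and 142, 139 and 148 CPM in shSLC6A8. Its groups did not overlap either, and it fell by 0.40 ± 0.06 (adjusted p = 5.27e-05). A read-through gene, NDUFC2-KCTD14, shares its sequence and was listed at 12.4 to 24.1 TPM in the Huh7 libraries, beside 437 to 570 TPM for NDUFC2. NDUFC1 (chr4:139289917-139302551), a small neighbour of NDUFC2 in the enzyme, had 47.3, 53.3 and 49.7 CPM in shNC and 37.3, 42.1 and 39.8 CPM in shSLC6A8, a fall of 0.33 ± 0.07 (adjusted p = 0.000335) with no overlap. NDUFA8, which lies on the intermembrane side, fell by 0.32 ± 0.07 (adjusted p = 0.000966). NDUFA10, a matrix-facing subunit with a nucleoside kinase fold, was the one that rose, and NDUFA3, NDUFA11, NDUFA13 and NDUFS5 ranged from -0.11 to 0.14 without passing.

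NDUFA10 (chr2:239892442-240025342) had 96.1, 102 and 94.9 CPM in Huh7 shNC and 109, 109 and 113 CPM in Huh7 shSLC6A8. The knockdown libraries were all higher, by 0.17 ± 0.05 (adjusted p = 0.00662).

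The distal membrane arm of Huh7 had both the strongest fall and a pair of rises among small subunits, with 5 lower, 3 higher and 3 that did not pass the test, and a median of -0.14. NDUFB9, another LYR protein that binds the acyl carrier, had 289, 326 and 283 CPM in shNC and 178, 175 and 191 CPM in shSLC6A8. The gene was lower in each knockdown library, by 0.72 ± 0.06 on the log2 scale or 0.605-fold of the control (adjusted p = 6.81e-09). NDUFB6 (chr9:32553001-32573159) had 13.7, 15.3 and 15.4 CPM in shNC and 18.8, 21.3 and 22.2 CPM in shSLC6A8. NDUFB1 (chr14:92116123-92121706) had 13.3, 12.7 and 11.5 CPM in shNC and 15.0, 16.2 and 17.0 CPM in shSLC6A8. Both are small subunits that cross the membrane, and neither gene's groups overlapped. NDUFB6 rose by 0.49 ± 0.09 (adjusted p = 0.000138) and NDUFB1 by 0.36 ± 0.09 (adjusted p = 0.00264). NDUFB7 fell by 0.30 ± 0.08 (adjusted p = 0.00274), and the remaining calls, NDUFB4, NDUFB5 and NDUFB11 lower and NDUFB10 higher, were of 0.15 or less in size. NDUFB4 lost its call without shNC replicate 2 (-0.10), shSLC6A8 replicate 1 (-0.08) or shSLC6A8 replicate 3 (-0.16), and NDUFB10 without replicate 3 of shNC (0.11) or of shSLC6A8 (0.13). NDUFB5 and NDUFB11 each lost theirs without any of 5 of the 6 libraries, at -0.14 to -0.11 for NDUFB5 (shNC replicate 1 being the exception) and -0.16 to -0.09 for NDUFB11 (shNC replicate 3 being the exception). Other settings mattered too. NDUFB4, NDUFB5 and NDUFB11 also lost their calls with library totals, with the length and GC trends removed and in 1 fit of 12 libraries. NDUFB5 and NDUFB11 further lost theirs with no filter and with the replicate block, NDUFB5 with DESeq2 and NDUFB11 with limma-voom. NDUFB10 also lost its call with the replicate block and in 1 fit of 12 libraries. NDUFB7 lost its call when the length and GC trends were removed (-0.09).

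NDUFAB1 (chr16:23581014-23596316), the mitochondrial acyl carrier protein, is bound to complex I through the LYR subunits NDUFA6 and NDUFB9 and also serves fatty acid synthesis in the matrix. In Huh7 it had 85.0, 106 and 92.5 CPM in shNC and 70.3, 72.6 and 69.0 CPM in shSLC6A8. It was lower in every knockdown library, by 0.42 ± 0.07 (adjusted p = 5.70e-05).

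**Figure D2:**
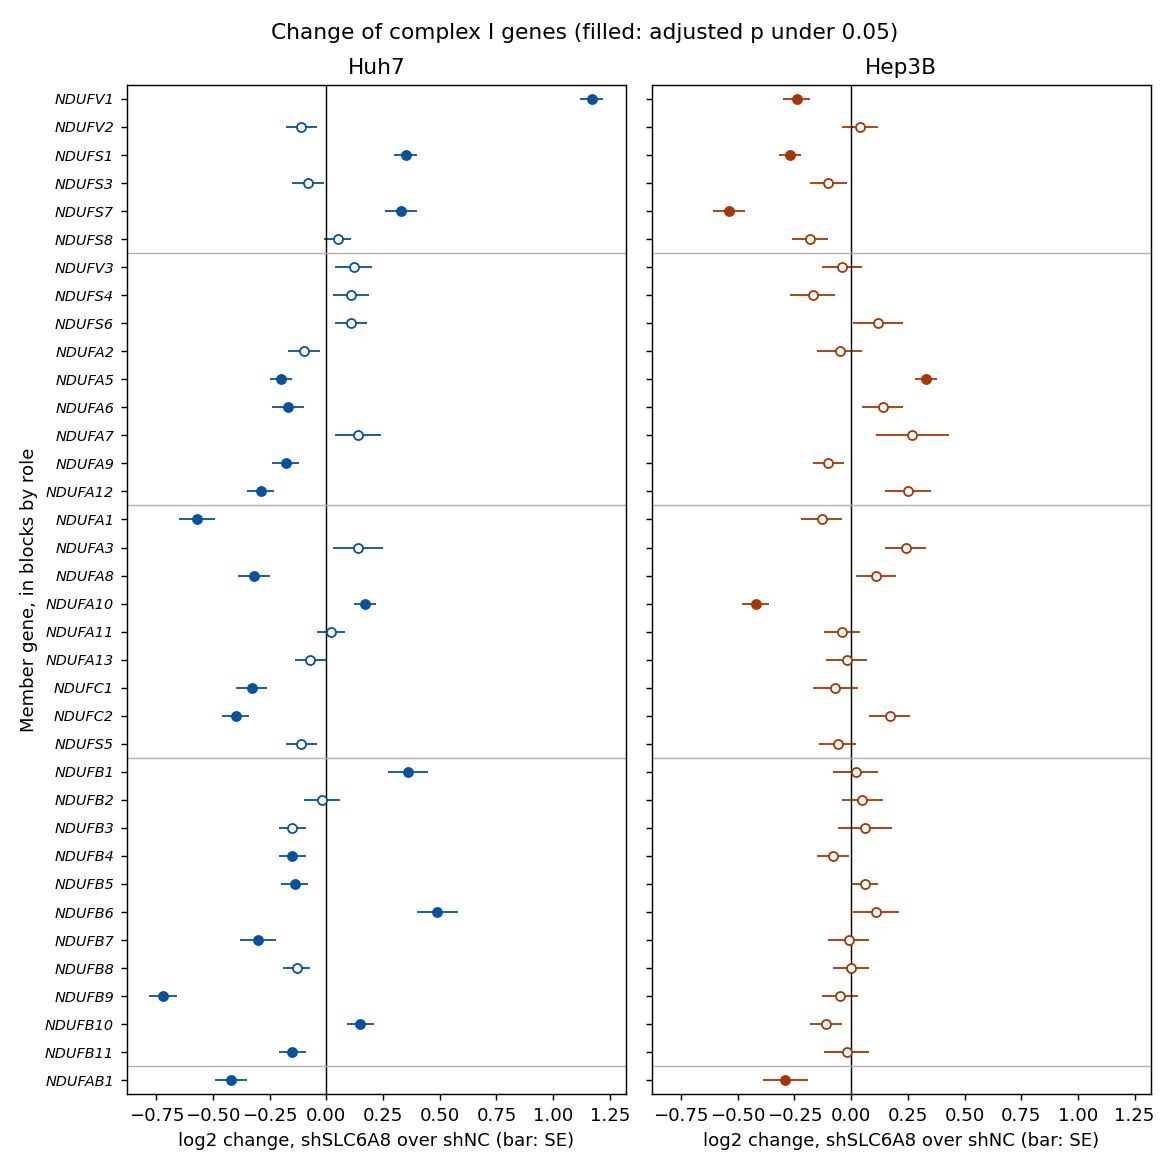
Log2 change of each complex I gene, shSLC6A8 over shNC, in Huh7 (left) and Hep3B (right), from edgeR on TMM-scaled counts with n = 3 per group. Bars are the approximate SE and filled points have an adjusted p under 0.05. In Huh7 NDUFV1 lies at 1.17 and NDUFB9 at -0.72, and in Hep3B the genes lie between -0.54 and 0.33.

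In Hep3B fewer complex I genes changed. At an adjusted p under 0.05, 5 of the 36 fell and 1 rose, or 16.7% of the members, beside 40.1% of all 16181 genes tested in Hep3B. The lower share was 13.9% beside 21.2% of all genes and the higher share was 2.78% beside 18.9%. The median change was -0.03, beside 0.01 for all genes, and the groups did not overlap for 6 members, beside 51.1% of all genes. Scaling by library totals, which moved the median of all genes by 0.19, left 2 lower and 12 higher, and removing the length and GC trends gave 7 lower and 4 higher. One library, shSLC6A8 replicate 2, had the lowest summed members in its group, at 2599 CPM beside 2929 and 3120, and without it 4 were lower and 5 higher. Without shNC replicate 2, and likewise without shNC replicate 3, 3 were lower and 1 higher.

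Of the 6 core genes of the matrix arm, 3 fell in Hep3B, none rose and 3 did not pass the test, with a median of -0.21. NDUFS7 had 88.3, 102 and 97.0 CPM in shNC and 68.9, 59.9 and 68.4 CPM in shSLC6A8. The groups were well apart, and the fall was 0.54 ± 0.07 on the log2 scale, to 0.686-fold of the control (adjusted p = 0.000264), the strongest among the members in Hep3B. NDUFS1 had 132, 130 and 132 CPM in shNC and 112, 110 and 105 CPM in shSLC6A8, with no overlap, and fell by 0.27 ± 0.05 (adjusted p = 0.00129). With library totals its change was -0.08 and the call was lost. NDUFV1 had 339, 360 and 367 CPM in shNC and 307, 276 and 320 CPM in shSLC6A8, again without overlap, and fell by 0.24 ± 0.06 (adjusted p = 0.0125). The NDUFV1 call depended on the scaling and on single libraries: the change was -0.05 with library totals (adjusted p = 0.475), -0.23 without shNC replicate 2 (adjusted p = 0.0541) and -0.22 without shNC replicate 3 (adjusted p = 0.0522). In TPM the level of NDUFV1 was higher after the knockdown, at 401, 393 and 408 beside 387, 385 and 386 in the controls.

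Outside the core, 3 accessory genes were called in Hep3B. NDUFA10 had 98.9, 114 and 109 CPM in shNC and 78.0, 81.2 and 81.9 CPM in shSLC6A8, with no overlap, and fell by 0.42 ± 0.06 (adjusted p = 0.000419). NDUFA5 (chr7:123536997-123601651) had 57.7, 57.2 and 59.9 CPM in shNC and 74.2, 71.7 and 74.2 CPM in shSLC6A8. It was the one member called higher in Hep3B, and its groups were apart by a rise of 0.33 ± 0.05 (adjusted p = 0.000658). NDUFAB1 had 41.2, 47.4 and 54.3 CPM in shNC and 39.3, 35.1 and 42.1 CPM in shSLC6A8, and the groups overlapped. Its fall of 0.29 ± 0.10 was near the threshold (adjusted p = 0.0458) and was lost under 6 alternatives, among them leaving out 1 library. The adjusted p was 0.108 without shNC replicate 2, 0.171 without shNC replicate 3, 0.106 without shSLC6A8 replicate 1 and 0.107 without shSLC6A8 replicate 2, at changes of -0.30, -0.19, -0.30 and -0.22. The 11 genes of the distal membrane arm all stayed between -0.11 and 0.11 and none passed the test. NDUFB9, which fell in Huh7, had 159, 174 and 179 CPM in Hep3B shNC and 165, 146 and 185 CPM in Hep3B shSLC6A8, with overlapping groups and a change of -0.05 ± 0.08 (adjusted p = 0.685). NDUFS7, NDUFA10 and NDUFA5 were called the same way under each of the 15 alternatives run for Hep3B. In the authors' deposited table for Hep3B, 0 members were marked significant and 6 had an adjusted p under 0.05, beside 17 in the authors' deposited table for Huh7.

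**Figure D3:**
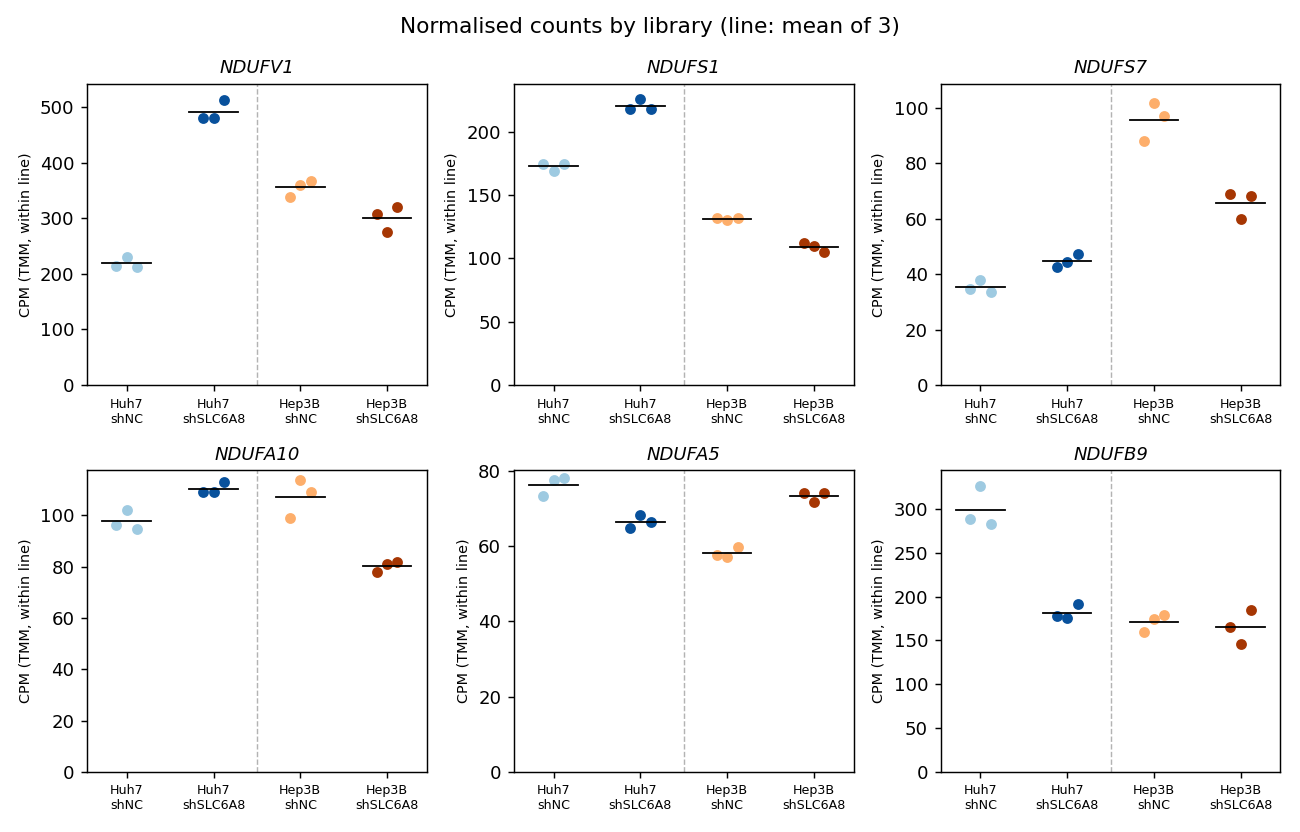
Normalised read counts in CPM (TMM scaling within each line, so levels are compared within a line) of 6 complex I genes in each library, with the mean of 3 libraries as a line. NDUFV1, NDUFS1, NDUFS7 and NDUFA10 are higher after the knockdown in Huh7 and lower in Hep3B, NDUFA5 goes the other way, and NDUFB9 falls in Huh7 and overlaps in Hep3B. The fall of NDUFV1 and of NDUFS1 in Hep3B and that of NDUFA5 in Huh7 were not called with library totals.

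Of the 6 complex I genes called in both lines, 5 went in opposite directions, namely NDUFV1, NDUFS1, NDUFS7 and NDUFA10, which rose in Huh7 and fell in Hep3B, and NDUFA5, which did the reverse. NDUFAB1 fell in both. The opposite calls were 13.9% of the members, beside 14.1% of the 14796 genes tested in both lines, and the call in the same direction was 2.78% beside 14.6%. With library totals 5 members were again called in opposite directions, but of the 5 above these kept NDUFS7 and NDUFA10 alone: NDUFV1 and NDUFS1 lost the call in Hep3B and NDUFA5 that in Huh7, while NDUFC2, NDUFA8 and NDUFA12 joined. In TPM the level of NDUFV1 was higher after the knockdown in Hep3B too (log2 ratio 0.05), and that of NDUFA5 was higher in Huh7 too (0.05). Another 15 genes were called in Huh7 and not in Hep3B (41.7% beside 35.5% of the genes tested in both), 0 in Hep3B and not in Huh7 (beside 12.3%), and 15 in neither (41.7% beside 23.4%). The lines share no libraries, and the changes of the 36 genes had the same sign in both for 17 of them, with a Pearson r of -0.26 and a Spearman rho of -0.20 across genes, which are not independent replicates.

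The difference itself, the Hep3B change minus the Huh7 change in 1 fit of 12 libraries, was called for 13 members, 6 lower and 7 higher, or 36.1% of the members, beside 47.1% of all 18570 genes tested. The lower share was 16.7% beside 24.0% of all genes, and the higher share 19.4% beside 23.1%. With the length and GC trends removed, 14 were lower and 5 higher, and with library totals 4 were lower and 10 higher. NDUFV1 differed by -1.40 ± 0.08 (adjusted p = 5.50e-10), NDUFS1 by -0.61 ± 0.06 (adjusted p = 2.84e-07), NDUFS7 by -0.87 ± 0.10 (adjusted p = 2.81e-06) and NDUFA10 by -0.59 ± 0.08 (adjusted p = 6.82e-06). NDUFA5 differed by 0.54 ± 0.07 (adjusted p = 7.29e-06). These 5, with NDUFB9, NDUFC2, NDUFA12 and NDUFA8, were called the same way under each of the 20 alternatives run for the difference. NDUFB9 differed by 0.68 ± 0.11 (adjusted p = 0.000105) and NDUFC2 by 0.57 ± 0.12 (adjusted p = 0.00105). NDUFAB1, which fell in both lines, differed by 0.13, with a 95% interval from -0.14 to 0.40.

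The promoters of the 5 genes called in opposite directions are shown because they are the members called in both lines with opposite signs. Each is the 250 bases before a start of the gene in RefSeq (GRCh38.p14), read 5′ to 3′ on the gene's strand. Windows were at hand for 32 of the 36 members, and NDUFB5, NDUFB9, NDUFC2 and NDUFS5 had none. Where a gene had several starts, the one shared by most coding transcripts was taken, and the outermost one in a tie. For NDUFA5 this was an inner start, so its window lies within the gene's RefSeq span. The outer starts, at chr7:123601651 and chr7:123601611, had 0 coding GENCODE transcripts starting within 500 bases. Capitals mark matches on either strand to the letters searched for factors known to act on respiratory genes: GCATGCG for the core of the NRF1 motif, the full NRF1 motif, CCGGAAG for GABP and other ETS factors, AAGATGG for YY1 and AAGGTCA for the estrogen-related receptors.
NDUFV1: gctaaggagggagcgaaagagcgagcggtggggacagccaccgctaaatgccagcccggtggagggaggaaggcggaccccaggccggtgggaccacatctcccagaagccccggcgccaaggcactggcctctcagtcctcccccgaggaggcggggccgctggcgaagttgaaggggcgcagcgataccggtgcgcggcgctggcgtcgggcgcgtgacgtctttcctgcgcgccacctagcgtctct
NDUFS1: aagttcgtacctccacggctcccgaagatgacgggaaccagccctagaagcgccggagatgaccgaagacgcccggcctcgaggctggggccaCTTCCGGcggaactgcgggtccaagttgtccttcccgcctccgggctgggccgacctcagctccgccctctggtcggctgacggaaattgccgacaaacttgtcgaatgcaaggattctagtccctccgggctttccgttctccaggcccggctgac
NDUFS7: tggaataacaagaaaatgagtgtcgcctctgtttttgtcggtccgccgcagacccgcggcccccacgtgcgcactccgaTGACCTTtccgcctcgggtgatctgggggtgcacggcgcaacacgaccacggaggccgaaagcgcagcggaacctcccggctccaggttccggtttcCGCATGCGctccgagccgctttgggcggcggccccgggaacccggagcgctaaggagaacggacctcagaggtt
NDUFA10: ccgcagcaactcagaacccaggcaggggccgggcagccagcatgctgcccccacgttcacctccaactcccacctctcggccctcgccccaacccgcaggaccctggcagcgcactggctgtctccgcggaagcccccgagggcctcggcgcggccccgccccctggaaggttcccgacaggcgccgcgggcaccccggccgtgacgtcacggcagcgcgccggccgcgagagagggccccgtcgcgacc
NDUFA5: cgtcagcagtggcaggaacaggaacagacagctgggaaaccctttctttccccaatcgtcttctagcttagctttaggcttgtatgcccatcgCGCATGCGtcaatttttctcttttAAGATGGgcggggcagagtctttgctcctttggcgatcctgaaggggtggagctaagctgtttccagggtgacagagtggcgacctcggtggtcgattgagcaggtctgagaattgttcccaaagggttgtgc

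The NDUFV1 window lies at chr11:67606686-67606935, the NDUFS1 window at chr2:206159445-206159694, the NDUFS7 window at chr19:1383657-1383906, the NDUFA10 window at chr2:240025343-240025592 and the NDUFA5 window at chr7:123557819-123558068. GC content was 76.4% in NDUFA10, 70.4% in NDUFV1, 65.6% in NDUFS7, 64.4% in NDUFS1 and 52.8% in NDUFA5. NDUFV1 and NDUFA10 had no match in capitals. NDUFS1 had the ETS letters, NDUFS7 the NRF1 core and the letters of the estrogen-related receptors, and NDUFA5 the NRF1 core and the letters of YY1. The 4 genes that rose in Huh7 and fell in Hep3B had no match in common to all 4. Over the 32 windows, the NRF1 core was in 5 (15.6%) beside 3.39% of all 35116 windows of the RefSeq table, the full NRF1 motif in 5 (15.6%) beside 5.07%, and the ETS letters were in 5 (15.6%) beside 8.52%. The sets are unlike: each member gave 1 chosen window, whereas the 35116 hold every window, with several for some genes. They were not matched to the members in GC content, and no enrichment was tested. The YY1 letters were in 2 (6.25%) beside 3.70% and those of the estrogen-related receptors in 2 (6.25%) beside 3.44%. The core letters of the hypoxia response element, ACGTG, which are short and were not put in capitals, were in 8 windows (25.0%) beside 18.5%, and among the 5 shown they were in NDUFS7 and NDUFA10. The ETS letters end in the AAG with which those of YY1 and of the estrogen-related receptors begin, so matches can overlap. The NRF1 core was added after the full motif had been searched. A match is a description of the sequence, and its absence says no more than that the letters are not in the window.

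Ratios between pairs of subunits within a library do not depend on how libraries are scaled, and 3 pairs, chosen after their values were seen, are given as a description with no test. The count of NDUFV1 over that of its partner NDUFV2 was 1.2, 1.09 and 1.19 in Huh7 shNC and 2.90, 2.74 and 2.77 in Huh7 shSLC6A8. In Hep3B it was 4.91, 4.50 and 4.38 in shNC and 3.77, 3.79 and 3.74 in shSLC6A8, so the ratio rose in one line and fell in the other with no overlap in either. The count of NDUFS7 over that of NDUFS8, its neighbour near the ubiquinone site, was 0.159, 0.154 and 0.157 in Huh7 shNC and 0.180, 0.199 and 0.195 in Huh7 shSLC6A8. In Hep3B the same ratio was 0.397, 0.394 and 0.397 in shNC and 0.313, 0.319 and 0.292 in shSLC6A8, the opposite direction again without overlap. The count of NDUFB9 over that of NDUFB10 was 4.15, 4.77 and 4.46 in Huh7 shNC and 2.47, 2.36 and 2.45 in Huh7 shSLC6A8, and it overlapped between the Hep3B groups, at 2.43 to 2.49 and 2.46 to 2.71.

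**Figure D4:**
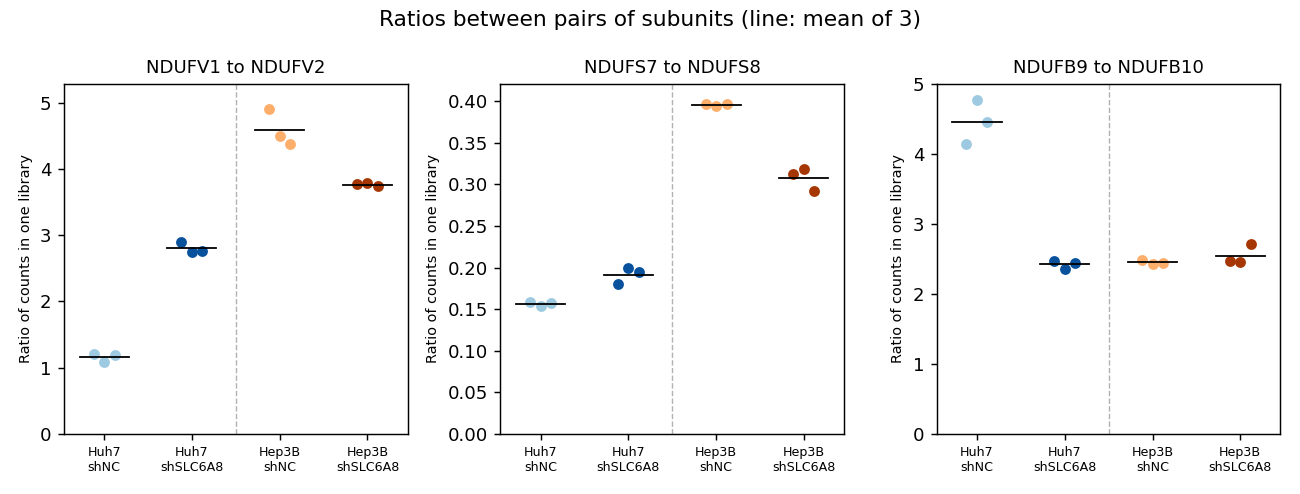
Ratio of the counts of a pair of complex I genes in each library, with the mean of 3 libraries as a line, for NDUFV1 to NDUFV2, NDUFS7 to NDUFS8 and NDUFB9 to NDUFB10. The first ratio goes from 1.09 to 1.2 up to 2.74 to 2.90 in Huh7 and from 4.38 to 4.91 down to 3.74 to 3.79 in Hep3B.

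The summed TPM of the 36 genes was 8159 ± 300 in Huh7 shNC and 8702 ± 207 in Huh7 shSLC6A8, and 7648 ± 263 in Hep3B shNC and 8439 ± 435 in Hep3B shSLC6A8 (mean ± SD, n = 3). In TPM the sums did not overlap in either line, with 7946 to 8503 in Huh7 shNC beside 8572 to 8941 in Huh7 shSLC6A8, and 7346 to 7820 in Hep3B shNC beside 7942 to 8747 in Hep3B shSLC6A8. The summed normalised counts were 3260, 3623 and 3218 CPM in Huh7 shNC and 3254, 3349 and 3525 CPM in Huh7 shSLC6A8. In Hep3B they were 2824, 3128 and 3175 CPM in shNC and 2929, 2599 and 3120 CPM in shSLC6A8. On the count scale the groups overlapped in both lines. In TPM, 27 of the 36 genes were higher after the knockdown in Huh7 and 32 in Hep3B, with a median log2 ratio of 0.08 and 0.15, so the sign of a small change in this complex depended on the unit.

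Between the control libraries of the lines, the share of complex I genes called was near that of all genes. Hep3B shNC was lower than Huh7 shNC for 17 genes and higher for 13, or 83.3% of the members, beside 81.2% of all 18570 genes tested. The lower share was 47.2% beside 41.3% of all genes and the higher share 36.1% beside 39.9%, with a median of -0.03 for the members and for all genes. With the length and GC trends removed 15 were lower and 18 higher. By the same edgeR test, NDUFB2 then turned from -0.30 to 0.14 (adjusted p = 0.038) and NDUFB4 from -0.27 to 0.13 (adjusted p = 0.011). Both were called in each setting. NDUFS5 went from -0.07 without a call to 0.33 (adjusted p = 5.97e-08). The lowest adjusted p among genes lower in Hep3B were those of NDUFC2 (-1.79 ± 0.09, adjusted p = 2.12e-11), NDUFV2 (-1.26 ± 0.09, adjusted p = 2.07e-09) and NDUFC1 (-0.92 ± 0.09, adjusted p = 5.28e-08). Among genes higher in Hep3B they were NDUFS7 (1.46 ± 0.08, adjusted p = 8.47e-12), NDUFB5 (0.93 ± 0.06, adjusted p = 1.83e-10) and NDUFA3 (1.40 ± 0.11, adjusted p = 2.83e-09). NDUFV1 was higher in Hep3B by 0.73 ± 0.06 and NDUFB9 lower by 0.78 ± 0.08. This comparison shares the control libraries with the knockdown comparisons, so its values stand beside theirs as a description. A batch common to the libraries of one line cannot be told apart from the line itself.

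The genes around complex I were described from lists by role, and their counts stand beside 31.0% of all genes lower and 30.9% higher in Huh7, and 21.2% lower and 18.9% higher in Hep3B. All counts and medians of these lists are on TMM scaling. Library totals moved the median of all genes up by 0.104 in Huh7 and by 0.19 in Hep3B, which is as large as many of the changes below. The counts of these lists with library totals are not given. Of 20 assembly factors, which build the enzyme and are not part of it, 9 fell and 6 rose in Huh7, with a median of -0.17, and 3 fell and 3 rose in Hep3B, with a median of -0.04. In Huh7 the lower genes with the smallest adjusted p were ECSIT (-0.70 ± 0.06), NDUFAF4 (-0.73 ± 0.08) and TMEM70 (-0.45 ± 0.06), and the higher ones were FOXRED1 (0.96 ± 0.07), ACAD9 (0.76 ± 0.06) and NUBPL (0.68 ± 0.06). NUBPL delivers iron-sulfur clusters to complex I, and ACAD9 and ECSIT act together in building the membrane arm, and ACAD9 and ECSIT were called in opposite directions (adjusted p = 6.34e-09 and 3.26e-08). In Hep3B NDUFAF5 (-0.46 ± 0.08), AIFM1 (-0.38 ± 0.07) and ECSIT (-0.40 ± 0.09) were lower, and TMEM70 (0.43 ± 0.08), NDUFAF8 (1.22 ± 0.30) and COA1 (0.20 ± 0.06) were higher. The NDUFAF8 call was lost without shNC replicate 1 (1.15, adjusted p = 0.0701) and without shSLC6A8 replicate 2 (1.35, adjusted p = 0.0561), and that of COA1 without shNC replicate 2 (adjusted p = 0.0639) or replicate 3 (adjusted p = 0.0715).

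Of the 7 mitochondrially coded complex I genes, 3 fell and 2 rose in Huh7 and 6 fell in Hep3B, with medians of -0.01 and -0.40. In Huh7 MT-ND1 (-0.23 ± 0.05, adjusted p = 0.000289), MT-ND6 (-0.24 ± 0.05, adjusted p = 0.000498) and MT-ND3 (-0.28 ± 0.07, adjusted p = 0.00168) fell, and MT-ND5 (0.59 ± 0.06, adjusted p = 2.57e-07) and MT-ND4L (0.90 ± 0.13, adjusted p = 0.00159) rose. In Hep3B MT-ND1 (-0.49 ± 0.05, adjusted p = 2.36e-05), MT-ND4 (-0.40 ± 0.05, adjusted p = 0.000118) and MT-ND2 (-0.23 ± 0.05, adjusted p = 0.00299) fell. MT-ND4L and MT-ND4 overlap on the mitochondrial genome and MT-ND6 lies on its other strand, so reads can be shared between these genes and their neighbours.

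Of 9 hypoxia-linked regulators of respiration tested out of 10 listed, 8 fell and none rose in Huh7, with a median of -0.74. In Hep3B 5 fell and 1 rose, with a median of -0.30. PDK1, a kinase that inhibits pyruvate dehydrogenase, fell by 1.47 ± 0.06 in Huh7 (adjusted p = 1.01e-12) and by 1.32 ± 0.05 in Hep3B (adjusted p = 7.75e-08). BNIP3, a receptor for the removal of mitochondria, fell by 1.79 ± 0.05 (adjusted p = 6.24e-15) and by 0.96 ± 0.05 (adjusted p = 4.41e-07). MIR210HG, the host of a hypoxia-induced microRNA, fell by 2.31 ± 0.14 in Huh7 (adjusted p = 3.66e-10) and changed by -0.13 ± 0.11 in Hep3B without passing the test. MXI1 fell by 0.87 ± 0.08 in Hep3B (adjusted p = 1.38e-05), and ISCU, an iron-sulfur scaffold, rose by 0.42 ± 0.12 there (adjusted p = 0.0165), a call that was lost without shNC replicate 1 (adjusted p = 0.0575). NDUFA4L2, a relative of NDUFA4 that lowers complex I activity in hypoxia, is named after its values were seen: it had 1.52, 1.47 and 2.04 CPM in Huh7 shNC and 0.284, 0.719 and 0.722 CPM in Huh7 shSLC6A8. In Hep3B it had 4.57, 5.22 and 5.17 CPM in shNC and 1.13, 1.15 and 1.73 CPM in shSLC6A8. It was scarce in both lines and lower in every knockdown library, by 1.52 ± 0.35 (adjusted p = 0.00109) and by 1.90 ± 0.21 (adjusted p = 5.90e-05). The part of these regulators in the changes of complex I genes was not tested.

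Of 11 regulators of mitochondrial biogenesis, 4 fell and 5 rose in Huh7 and 4 fell and none rose in Hep3B. MYC (-0.90 ± 0.05), ESRRA (-0.41 ± 0.07) and TFB2M (-0.36 ± 0.07) fell in Huh7, while PPARGC1B (1.0 ± 0.18), TFAM (0.23 ± 0.05) and NRF1 (0.27 ± 0.08) rose. In Hep3B PPARGC1A, a coactivator of respiratory genes, fell by 0.99 ± 0.09 (adjusted p = 1.94e-05), MYC fell by 0.47 ± 0.04 (adjusted p = 2.01e-05) and ESRRA by 0.22 ± 0.06 (adjusted p = 0.0167). The ESRRA call in Hep3B had an adjusted p of 0.0523 without shNC replicate 2, of 0.0706 without shNC replicate 3 and of 0.0511 without shSLC6A8 replicate 1. Of 15 genes of iron-sulfur cluster assembly, 3 fell and 4 rose in Huh7 and 2 fell and 5 rose in Hep3B. ISCU belongs to this list and to the hypoxia-linked regulators, and its rise in Hep3B is counted in each. ISCA1, FDX2 and LYRM4 fell in Huh7 (-0.71 ± 0.05, -0.37 ± 0.09 and -0.23 ± 0.08) and rose in Hep3B (0.28 ± 0.07, 0.40 ± 0.10 and 0.36 ± 0.08). LYRM4 lost its call in Huh7 without replicate 2 of shNC (adjusted p = 0.0679) or of shSLC6A8 (adjusted p = 0.168), and ISCA1 lost its call in Hep3B without shNC replicate 2 (adjusted p = 0.0515). NFS1 and GLRX5 rose in Huh7 (0.31 ± 0.06 and 0.26 ± 0.06), and IBA57 (-0.35 ± 0.09) fell in Hep3B.

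Of 12 genes of the other routes of electrons to ubiquinone, 4 fell and 5 rose in Huh7, and 7 fell and none rose in Hep3B, with medians of -0.09 and -0.32. SDHA, the flavin subunit of complex II, rose by 0.30 ± 0.05 in Huh7 (adjusted p = 3.80e-05) and fell by 0.43 ± 0.06 in Hep3B (adjusted p = 0.00018). CHDH (1.18 ± 0.08) and GPD2 (0.40 ± 0.07) also rose in Huh7, where ETFB (-0.57 ± 0.05), ETFDH (-0.36 ± 0.08) and SDHB (-0.19 ± 0.06) fell. SDHB lost its call in Huh7 without shSLC6A8 replicate 1 (adjusted p = 0.0627) or replicate 2 (adjusted p = 0.0757). In Hep3B SDHD (-2.17 ± 0.07), SQOR (-1.19 ± 0.07) and ETFA (-0.50 ± 0.05) fell. Of 35 nuclear genes of complexes III, IV and V, 16 fell and 5 rose in Huh7 and 12 fell and none rose in Hep3B, with medians of -0.10 and -0.15 beside -0.11 and -0.03 for complex I. The medians of all genes were 0.00 and 0.01. COX6A1 (-0.58 ± 0.06), COX6C (-0.58 ± 0.06) and NDUFA4 (-0.78 ± 0.07) fell in Huh7, and ATP5F1A (0.40 ± 0.04), ATP5MC2 (0.33 ± 0.06) and ATP5F1B (0.18 ± 0.04) rose. In Hep3B CYC1 (-0.89 ± 0.07), UQCRC2 (-0.58 ± 0.05) and ATP5F1A (-0.45 ± 0.05) fell.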

How the data were processed

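Libraries were made from RNAfast-2000 extracts with a SMARTer kit, per the labels' protocols. The submitters' processing notes name the build GRCh38.p14. Which aligner, counter, annotation and strand setting were used is not given in the sources used here. The authors deposited, per the file headers, an estimated count and a TPM value for each gene and library. The authors' deposited tables also hold each gene's fold change (ratio) with its log2, and p-values before and after adjustment, from a comparison tool that is not named. The estimated counts were rounded and not otherwise changed. The deposited TPM values were used for levels and not for tests. Other columns of sample values numbered 0.

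Counts were filtered by filterByExpr, scaled by TMM and tested over all genes in edgeR 4.0.16 (R 4.3.3) by its robust quasi-likelihood F test, with Benjamini-Hochberg adjusted p under 0.05. Each knockdown was fitted on the 6 libraries of its line without a covariate, and the difference between lines and the comparison of controls in 1 fit of 12 libraries. SE is the absolute log2 change over the square root of F and is approximate. Common biological variation was 5.9% in Huh7 and 7.8% in Hep3B. In simulated counts, edgeR recovered 62.5% of genes changed 1.5-fold and 84.4% of those changed 2-fold in Huh7, and 56.9% and 77.4% in Hep3B. The genes changed were picked at random, 104 and 96 of 16733 tested in Huh7 and 116 and 84 of 15960 in Hep3B. False calls numbered 13 and 17. Far fewer genes changed there than were called in the data, so these rates do not describe the complex I genes. Replicates of a group differed by more than sampling noise in every pair.

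Results were recomputed with DESeq2 1.42.0, with the size factors of DESeq2, with library totals, with no filter, a CPM of at least 1 in 3 libraries, limma-voom (limma 3.58.1), a replicate block, loess (span 0.5) removal of length and GC trends, 1 fit of 12 libraries, and leaving out each library. Of the 36 members, 24 overlap another gene in GENCODE, and reads of such pairs may be shared. Of these, 20 overlap a gene on the opposite strand and 17 a gene on the same strand, some of them both. NDUFV1, NDUFB9, NDUFA1, NDUFC1 and NDUFS7 are among them. Of 63 NDUF pseudogenes, 51 were listed at 0 in every library and the highest count was 58.9.

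The members and lists were chosen with earlier results of these data known. Values per library are given for up to 5 members per line and direction by adjusted p, for the 4 members with the smallest adjusted p of the difference and for the highest and lowest mean TPM. Means are given for the 6 core subunits, and values for up to 3 genes per other list, line and direction, and up to 3 members per direction of the control comparison. Some genes picked by this rule are not reported here.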

Additional observations from a re-analysis of the deposited data

Results flagged for a closer look

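For 13 of the 36 complex I genes the knockdown response differed between the lines by the interaction test in edgeR over 12 libraries. Values are the Hep3B change minus the Huh7 change on the log2 scale. The negative ones were NDUFV1 at -1.40, NDUFS7 at -0.87, NDUFS1 at -0.61, NDUFA10 at -0.59, NDUFB6 at -0.38 and NDUFB10 at -0.25. The positive ones were NDUFB9 at 0.68, NDUFC2 at 0.57, NDUFA5 at 0.54, NDUFA12 at 0.54, NDUFA1 at 0.45, NDUFA8 at 0.44 and NDUFA6 at 0.32.

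The calls of NDUFV1, NDUFS7, NDUFS1, NDUFA10, NDUFA5, NDUFB9, NDUFC2, NDUFA12 and NDUFA8 held under each of the 20 alternatives. NDUFA1 lost its call when the length and GC trends were removed (0.16). NDUFB6 was lost with library totals (-0.29) and when any of 7 single libraries was left out (-0.38 to -0.30). NDUFB10 was lost with library totals (-0.17), with the replicate block and without any of 6 single libraries (-0.26 to -0.19). NDUFA6 was lost with the trends removed (0.12) and without any of 7 single libraries (0.25 to 0.31).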

How the results depend on the processing

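Over the results tallied, 3568 recomputed values were taken as the same, 124 lost a call, 86 gained one, 12 turned direction and 20 counts moved by more than 1.5 times. Taken as the same were changes that stayed on their side of the threshold and counts that moved by up to 1.5 times. A change of sign without a call in either setting was not taken as a turn and is among the same, so not all of these kept their direction. The tally left out some members in the control comparison, among them NDUFB2 and NDUFB4, which turned direction with the length and GC trends removed. Scaling and composition mattered most. With library totals, members called lower fell to 8 in Huh7 and 2 in Hep3B and those called higher rose to 12 in each line. With length and GC trends removed, 9 were lower and 15 higher in Huh7, 4 were higher in Hep3B, and 14 were lower in the difference between lines. In Hep3B, 4 were higher without a filter and 2 in 1 fit of 12 libraries. Leaving out 1 library gave 9 to 14 lower and 6 to 10 higher in Huh7, and 3 to 7 lower and 1 to 5 higher in Hep3B. With library totals MT-ND2 in Huh7 was at 0.09 and FOXRED1 in Hep3B at 0.18. With trends removed, Huh7 MT-ND2 was at 0.10, NDUFB5 at 0.00, NDUFS5 at 0.09, NDUFA13 at 0.14, NDUFB2 at 0.18 and NDUFB4 at 0.00, and the difference was -0.26 for NDUFS6, -0.20 for NDUFA2, -0.20 for NDUFA13 and -0.22 for NDUFS5. The cause was not tested.

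Same-numbered libraries did not deviate together, with correlations of -0.06 to 0.04 in Huh7 and -0.10 to 0.10 in Hep3B, so the numbers were not used as pairs. The largest in Hep3B were between libraries of different number. They were 0.216 for shNC replicate 1 with shSLC6A8 replicate 2 and -0.176 for shNC replicate 1 with shSLC6A8 replicate 3. A block by replicate number does not cover these. With the replicate block, 11 members were lower and 6 higher in Huh7, 5 and 1 in Hep3B, and 5 and 7 in the difference. The control comparison between lines had no replicate block, since the lines share no replicate.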
